A study of Mus musculus with 24 samples.

Results

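*Chrebp* silencing was added to *Bmal1* silencing in AML-12 cells, and the 4 BOTH libraries were compared with the 4 BMAL1 libraries. These 8 of the 24 libraries of the series were chosen by their labels and not by any measured value. AML-12 is an established line of mouse hepatocytes, and all 8 cultures received 0.25 mM palmitate, the saturated fatty acid used to model steatosis. BMAL1 cells received 100 nM of an endoribonuclease-prepared small interfering RNA (esiRNA) against *Bmal1* for the last 24 hours. BOTH cells received 100 nM against *Bmal1* and 100 nM against *Chrebp*, which made a total of 200 nM. The library names in the labels, a letter and a number, carried the number 2 in BMAL1 and 3 in BOTH, so that *Chrebp* esiRNA, total esiRNA dose and library number cannot be told apart. Without *Bmal1* esiRNA, CHREBP (100 nM against *Chrebp*, library number 3) was set against CON (200 nM against *Egfp*, which mouse cells lack, library number 2), both with 0.25 mM palmitate. BMAL1 and BOTH had library letters E to H, and CON and CHREBP letters A to D. The comparison addressed what *Chrebp* silencing changes in palmitate-treated hepatocytes that also receive *Bmal1* esiRNA.

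BMAL1 (*Arntl* in the table) is the transcription factor that pairs with CLOCK and binds E-boxes to drive circadian transcription. ChREBP (*Mlxipl*) pairs with MLX, is activated by glucose metabolites, and drives genes of glycolysis and fatty acid synthesis in the liver. Hepatocytes also sense double-stranded RNA through RIG-I, MDA5, TLR3 and PKR, and the type I interferon that follows acts on the interferon-stimulated response element of antiviral genes.

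Total gene counts ran from 5570803 to 8167434 in BMAL1 and from 6754747 to 8745042 in BOTH. Unaligned reads made up 26.6% to 27.4% of the reads in BMAL1 and 24.9% to 26.3% in BOTH (exact permutation p = 0.0286, n = 4 per group), and its part in the results was not tested. Replicate 4 of BOTH stood apart. Mitochondrially encoded genes took 1.95% of its counts against 3.33% to 3.79% in the other 7 libraries, and it lay at -9.69 on the second principal component, against -1.92 to 4.46 in the other 15 esiRNA libraries. Counts that moved by more than 1.5 times without this library are given with and without it. The hepatocyte markers *Krt18*, *Krt8*, *Hnf4a*, *Ttr* and *Alb* were all detected, and *Alb* was low, at 135 to 188 normalized counts in the 8 libraries. Other genes of the hepatocyte list, *Cps1* and *Cyp2e1*, were below the count filter, with 20 and 19 counts in all 16 libraries. Cholangiocyte markers were also detected, with a summed level of 16380 to 17420 in BMAL1 and 15040 to 16530 in BOTH. Endothelial and lymphocyte markers gave 0 to 2 counts in total per library in BMAL1 and BOTH, and of the macrophage markers *Adgre1*, *Clec4f* and *Marco* were at 0 counts. The summed level of the 4 tested macrophage markers was 537 to 664 in BMAL1 and 580 to 787 in BOTH.

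The transcripts targeted by the esiRNAs were examined first. *Mlxipl* (ENSMUSG00000005373, GRCm38 chromosome 5, 135089890 to 135138382, + strand) had normalized counts of 48.2, 31.2, 28.2 and 35.3 in BMAL1 replicates 1 to 4 and 14.6, 20.6, 22.2 and 11.7 in BOTH. Every BOTH library was below every BMAL1 library. The mean was 35.7 ± 8.81 in BMAL1 and 17.3 ± 4.97 in BOTH (SD, n = 4). On the log2 scale *Mlxipl* thus fell by 1.04 (SE 0.31, DESeq2 *Padj* = 0.0121), and its value lay between -1.17 and -0.87 in all 17 alternatives tried. *Arntl* (ENSMUSG00000055116, chromosome 7, 113207465 to 113314126, + strand) had normalized counts of 23.4, 22.6, 26.2 and 33.4 in BMAL1 and 16.9, 31.3, 25.7 and 18.4 in BOTH. These groups overlapped, and the log2 fold change was -0.20 (95% interval -0.79 to 0.39, DESeq2 *Padj* = 0.804). Without *Bmal1* esiRNA, the change of *Mlxipl* from 36.1 ± 7.36 in CON to 26.2 ± 4.82 in CHREBP (SD, n = 4) was not past the threshold (log2 difference -0.46, SE 0.28, DESeq2 *Padj* = 0.593). Both transcripts overlap an annotated gene on the other strand, and the use of strand in the counting was not given in the sources used here.

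**Figure D1:**
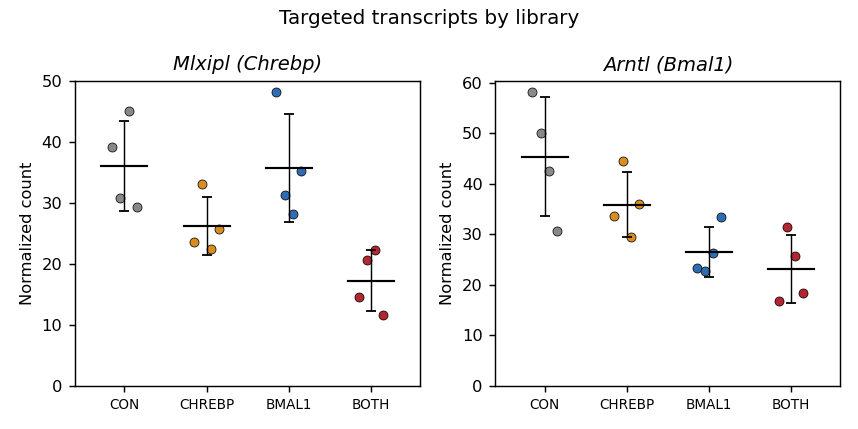
Normalized counts of the targeted transcripts (y axis) in the 4 libraries of each esiRNA group (x axis), with the mean as a line and the SD as an error bar. *Mlxipl* was 11.7 to 22.2 in BOTH and 28.2 to 48.2 in BMAL1 with no overlap, while *Arntl* overlapped between these groups.

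In BOTH against BMAL1, 882 genes were higher and 566 lower among 13883 tested (DESeq2 *Padj* under 0.1), which is 6.35% and 4.08% of the genes. The lower genes numbered 369 at a *Padj* under 0.05 and 297 when the 8 libraries were fitted alone. The rises were larger than the falls. Among them, 271 rose and 40 fell by a factor of 2 or more, and 75 rose and 0 fell by a factor of 16 or more. The median log2 fold change was 0.52 among the genes that rose, -0.40 among those that fell and -0.016 over all genes tested. The groups did not overlap for 1563 genes (11.3% of those tested). Without replicate 4 of BOTH 974 genes rose and 742 fell, of which 793 and 463 had also been called with it. Nothing in the labels says that the 4 libraries of a group came from separate cultures, so that the p-values measure only the spread between these samples, which may be technical. The 882 genes took 8.05% to 8.25% of the counts in BMAL1 and 11.8% to 14.3% in BOTH. The cells were measured in bulk, so that a lower level in every cell and a smaller share of expressing cells cannot be told apart.

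**Figure D2:**
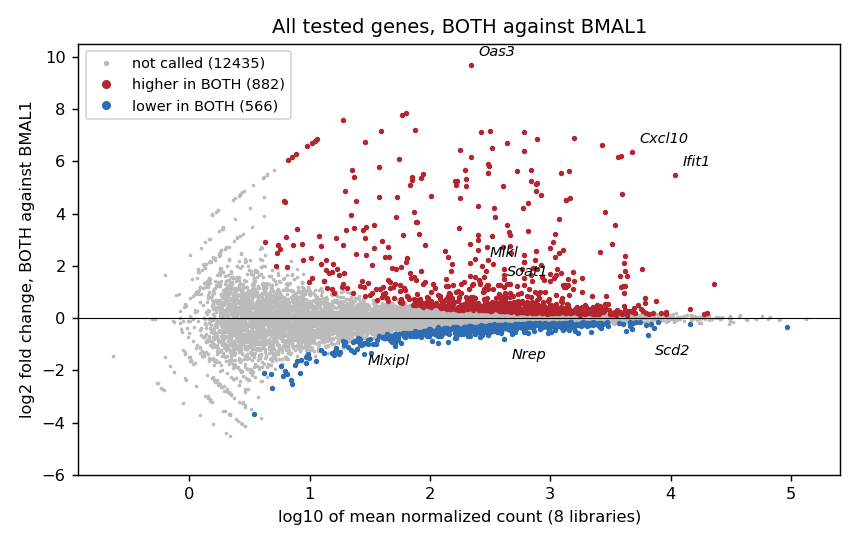
log2 fold change of BOTH against BMAL1 (y axis) against the log10 mean normalized count of the 8 libraries (x axis) for the 13883 genes tested. The 882 genes called higher reach a log2 value of 9.69 for *Oas3*, and none of the 566 genes called lower is past a 16-fold change.

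The strongest rises were in genes of the type I interferon response. All 31 tested antiviral effectors rose (median log2 fold change 5.55, range 0.53 to 9.69), as did all 12 tested interferon-induced GTPases (median 4.91). Of 18 RNA and DNA sensors and adaptors, 13 rose and 0 fell (median 1.51), and of 19 genes of MHC class I antigen presentation, 17 rose and 0 fell (median 1.77). These lists were written with earlier results of these data known, and over all tested genes 6.35% were called higher, 4.08% were called lower and the median was -0.016.

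Among the ligands, *Ifnb1* (interferon beta, chromosome 4, 88522025 to 88522774, - strand) had no count in any BMAL1 library. Its normalized counts in BOTH were 10.1, 33.1, 14.0 and 18.45, so that all 4 BOTH libraries held reads of it. Against a floor of 3 counts over the BMAL1 group it was at least 24.8-fold higher (DESeq2 *Padj* = 1.11e-06). It was 0 to 2.74 in CON and 1.73 to 8.97 in CHREBP, a difference that was not past the threshold (DESeq2 *Padj* = 0.339). *Ifnl2* and *Ifnl3*, which encode interferon lambda, were below the count filter, with 2 and 4 counts in all 16 libraries.

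The sensors of double-stranded RNA rose, and several adaptors did not pass the test. *Ddx58*, which encodes RIG-I, went from 96.4, 109, 122 and 102 normalized counts in BMAL1 to 601, 870, 657 and 703 in BOTH. The groups did not overlap, and the fold change was 6.58 (DESeq2 *Padj* = 2.98e-21). *Eif2ak2*, which encodes PKR, the kinase that halts translation on binding double-stranded RNA, rose 4.34-fold (DESeq2 *Padj* = 4.13e-11). *Ifih1* (MDA5) and *Tlr3* rose by log2 values of 3.57 and 3.29. *Zbp1*, a sensor of left-handed nucleic acids that can trigger necroptosis, went from 2.15 to 6.88 normalized counts in BMAL1 to 267 to 412 in BOTH (log2 fold change 6.43, SE 0.69, DESeq2 *Padj* = 2.28e-18). The adaptors *Mavs*, *Ticam1*, *Traf3* and *Sting1* had log2 fold changes of 0.07, -0.17, -0.15 and -0.19 and were not called.

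Of 22 tested ligands, receptors and signalling genes of the interferon pathway, 12 rose and 1 fell (median 0.31), where 6.35% and 4.08% of all genes did, so that the fall is near the background. Without replicate 4 of BOTH 13 rose and 2 fell. *Usp18*, which removes ISG15 from proteins and restrains receptor signalling, had 49.6, 48.5, 51.5 and 65.0 normalized counts in BMAL1 and 3958, 7443, 5279 and 4707 in BOTH. The groups were far apart, with a 99.6-fold difference (DESeq2 *Padj* = 1.17e-28). *Irf7*, which amplifies interferon gene transcription, rose 49.5-fold (DESeq2 *Padj* = 8.39e-22). *Stat2*, *Irf9* and *Irf1* rose by log2 values of 2.93, 1.59 and 1.49. The receptor subunit *Ifnar1* and the kinases *Jak1* and *Tyk2* had values of -0.32, 0.13 and 0.09 and were not called. *Socs3*, a feedback inhibitor of cytokine receptors, was the member that fell, from 499 to 608 normalized counts in BMAL1 to 319 to 468 in BOTH (log2 fold change -0.51, SE 0.11, DESeq2 *Padj* = 0.000102), and its relative *Socs1* rose by 2.34.

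Among the effectors, *Ifit1* encodes a protein that binds viral RNA lacking a host cap. Its normalized counts were 465, 380, 494 and 580 in BMAL1 and 17900, 28200, 23140 and 16550 in BOTH. All 4 BOTH libraries were above all BMAL1 libraries, by 44.7-fold on average (log2 fold change 5.48, SE 0.49, DESeq2 *Padj* = 5.77e-27). *Rsad2*, which encodes viperin and makes a chain-terminating nucleotide, went from 31.7, 19.4, 23.3 and 29.7 to 2132, 5336, 3289 and 1651 normalized counts, and its neighbour *Cmpk2*, which supplies the nucleotide precursor, rose 115-fold (DESeq2 *Padj* = 2.3e-21). The synthase *Oas3*, which makes the 2-5A activator of RNase L, had 2 reads in the BMAL1 group and 253 to 711 normalized counts in BOTH, a ratio of 847 with a counting interval of 234 to 7000. *Mx1*, *Phf11d*, *Oas1g*, *Ifi207*, *Trim30a*, *Iigp1* and *Ifi44* complete the 10 largest rises among called genes with no overlap and a mean of at least 50 normalized counts, with log2 fold changes of 6.72 to 7.85. Under the 17 alternatives these sizes moved, for *Phf11d* from 7.33 to 9.43 and for *Ifi44* from 6.42 to 6.89. Several of these genes have near-identical relatives in the genome, and the counts of *Oas1g*, *Ifi207*, *Trim30a*, *Phf11d* and the *Gbp* genes are uncertain where such relatives share reads.

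The promoters of these effectors were examined because interferon acts on them through a known element. The letters GAAANNGAAA, the core of the interferon-stimulated response element, were searched on both strands in windows of 250 bases before to 50 after each start site (RefSeq, GRCm38.p6). They were found in 92 of 700 genes that rose and had a promoter in the table (13.1%) and in 11 of 446 that fell (2.47%). Of genes not called, 271 of 8936 held them (3.03%), and of all tested genes with a promoter 374 of 10082 did (3.71%). Counted by promoter, of which a gene can have several, 1131 of all 32851 held them (3.44%). Among genes that rose at least 4-fold, 47 of 117 held it (40.2%). It was in 7 of 7 genes with a promoter in the GTPase list and in 11 of 24 in the antiviral list. The E-box CACGTG, which BMAL1 binds with CLOCK, was in the promoters of 94 of 700 genes that rose (13.4%). The E-box count was 3 of 117 for rises of at least 4-fold (2.56%) and 91 of 583 for smaller rises (15.6%). It was in 37 of 446 of genes that fell (8.3%) and 1066 of 8936 of genes not called (11.9%). Such matches are descriptions of the sequence and show no binding.

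The 130 bases before the start site are shown for effectors with a match close to it, on the strand of the gene, with each match in capitals. They lie at chr19:34640759-34640888 (+) for *Ifit1*, chr5:120777660-120777789 (-) for *Oas3*, chr12:26456453-26456582 (-) for *Rsad2* and chr3:142530206-142530335 (+) for *Gbp7* in GRCm38.p6.
Ifit1: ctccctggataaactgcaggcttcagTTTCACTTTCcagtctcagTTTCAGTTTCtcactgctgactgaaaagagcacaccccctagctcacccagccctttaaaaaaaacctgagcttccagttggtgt
Oas3: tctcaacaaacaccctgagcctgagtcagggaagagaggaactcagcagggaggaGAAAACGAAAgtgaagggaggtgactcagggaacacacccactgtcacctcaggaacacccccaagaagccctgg
Rsad2: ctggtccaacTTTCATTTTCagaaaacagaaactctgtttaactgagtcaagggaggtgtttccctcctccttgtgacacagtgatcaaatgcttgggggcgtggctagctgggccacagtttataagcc
Gbp7: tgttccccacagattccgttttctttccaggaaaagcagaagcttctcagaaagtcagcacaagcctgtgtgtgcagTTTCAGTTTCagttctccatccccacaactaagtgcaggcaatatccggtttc
*Ifit1* held 2 matches, which began 104 and 85 bases before the start site. *Oas3*, *Rsad2* and *Gbp7* held 1 each, which began 75, 120 and 53 bases before it. *Gbp7*, a guanylate-binding protein that attacks the vacuoles of intracellular pathogens, went from 5.39 to 16.5 normalized counts in BMAL1 to 185 to 1073 in BOTH (log2 fold change 5.82, SE 0.68, DESeq2 *Padj* = 7.75e-16).

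Among transcripts of antigen presentation, rises ran from those for peptide cutting to those for the surface molecule. *Psmb9*, a subunit of the immunoproteasome that cuts peptides for MHC class I, had 8.26, 14.0, 15.5 and 17.6 normalized counts in BMAL1 and 220, 503, 330 and 316 in BOTH. It was higher in all 4 BOTH libraries (24.3-fold, DESeq2 *Padj* = 7.4e-29). The peptide transporter subunits *Tap1* and *Tap2* rose by log2 values of 4.30 and 3.87, the classical heavy chains *H2-K1* and *H2-D1* by 2.10 and 1.63, and the light chain *B2m* by 1.30. *Nlrc5*, the transactivator of MHC class I genes, rose by 5.08 (SE 0.59, DESeq2 *Padj* = 7.93e-16). The chaperones *Canx* and *Calr*, which serve all secreted proteins, had values of 0.00 and 0.22 and were not called. The reads of the *H2* genes can be shared between relatives, and *Psmb9* overlaps *Tap1* on the other strand.

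Of 16 tested chemokines and cytokines, 9 rose and 1 fell, beside 6.35% called higher and 4.08% called lower over all genes. *Cxcl10*, which attracts T cells through CXCR3, had 110, 111, 104 and 131 normalized counts in BMAL1 and 5898, 15860, 9609 and 6525 in BOTH. The difference was 83.1-fold (log2 fold change 6.38, SE 0.57, DESeq2 *Padj* = 2.37e-26). The other ligands of this receptor, *Cxcl9* and *Cxcl11*, rose by log2 values of 4.67 and 5.63, and *Ccl5* and *Il15* by 2.99 and 1.34. *Ccl2* and *Ccl7*, which attract monocytes, rose by 0.67 and 0.74, and *Cxcl1* and *Cxcl5*, which attract neutrophils, had values of 0.17 and -0.12 and were not called. The call of the member that fell, *Cx3cl1*, was lost without any one of replicates 1, 2 and 4 of BMAL1 or 1, 2 and 3 of BOTH. Of 18 NF-kB genes, 7 rose, against the same 6.35% over all genes, by log2 values of 0.16 to 1.10, of which *Tnfaip3*, an inhibitor of this pathway, rose by 0.46 (SE 0.09, DESeq2 *Padj* = 7.71e-06). The NF-kB count was 4 without replicate 1, 3 or 4 of BMAL1 and 1 without replicate 2 of BOTH, which is near the share over all genes.

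Of 22 cell death genes, 8 rose and 0 fell (median 0.17), and over all genes 6.35% rose and 4.08% fell. Without replicate 3 of BOTH 1 fell. *Mlkl*, the protein that opens the membrane in necroptosis, had 86.7, 99.1, 133 and 110 normalized counts in BMAL1 and 340, 544, 461 and 394 in BOTH (4.03-fold, DESeq2 *Padj* = 2.89e-29). The groups did not overlap. *Tnfsf10*, the death ligand TRAIL, went from 0 to 2.15 normalized counts to 64.1 to 173 (DESeq2 *Padj* = 1.02e-11), and *Daxx*, a death domain-associated chromatin factor, rose 5.98-fold. *Bid* and *Gsdmd* rose by log2 values of 0.63 and 0.55. *Ripk3*, *Bax* and *Mcl1* had values of -0.07, -0.12 and -0.06 and were not called.

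**Figure D3:**
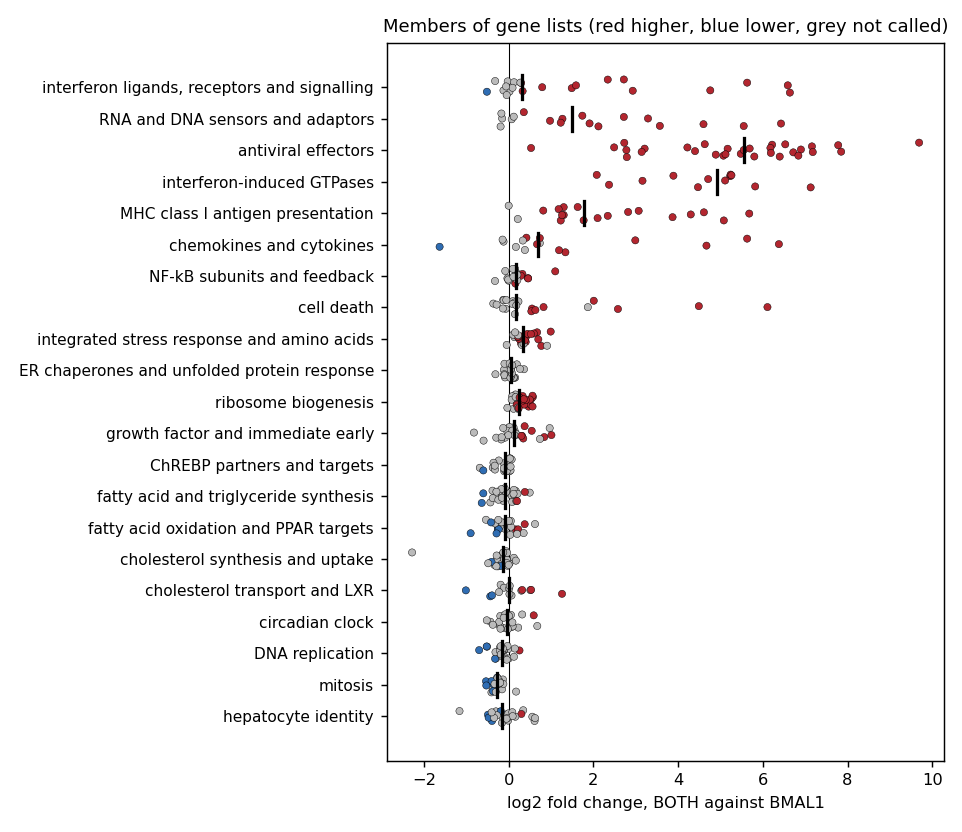
log2 fold change of BOTH against BMAL1 (x axis) for the tested members of 21 gene lists (y axis), with red for called higher, blue for called lower, grey for not called and a bar at the median of each list. Antiviral effectors (median 5.55) and GTPases (median 4.91) lie far to the right, and metabolic lists lie around 0.

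Outside the interferon lists, genes of the integrated stress response rose by less than 2-fold. Of 24 tested members, 15 rose and 0 fell (median 0.35), against 6.35% higher and 4.08% lower among all genes tested. *Atf3*, a stress-induced transcription factor, had 533, 481, 412 and 576 normalized counts in BMAL1 and 846, 1173, 1035 and 926 in BOTH, with no overlap (log2 fold change 0.99, SE 0.13, DESeq2 *Padj* = 4.43e-12). *Ddit3* (CHOP) rose by 0.77 and *Ppp1r15a* (GADD34), which reverses the block of translation initiation, by 0.70 (DESeq2 *Padj* = 5.09e-07 and 0.000298). *Atf4*, *Asns* and *Trib3* rose by 0.34, 0.29 and 0.59. Of 19 chaperones and other genes of the unfolded protein response, 0 were called in either direction by DESeq2 (median 0.06), which is near those shares, and 1 was called higher without replicate 1 of BMAL1.

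Genes of ribosome biogenesis also rose, in 15 of 26 tested members with 0 falling (median 0.25), against 6.35% called higher and 4.08% lower among all genes, and in 19 without replicate 4 of BOTH. *Rrp12*, which is needed for export and maturation of ribosomal subunits, had 107, 132, 106 and 136 normalized counts in BMAL1 and 158, 169, 201 and 184 in BOTH (log2 fold change 0.56, SE 0.15, DESeq2 *Padj* = 0.00263). *Myc*, a transcription factor that drives such genes, had 2440, 2460, 2412 and 2491 in BMAL1 and 3163, 3693, 3709 and 3733 in BOTH. It rose by a log2 value of 0.54 (SE 0.06, DESeq2 *Padj* = 1.96e-17), with the lowest BOTH library well above the highest BMAL1 library. Of 28 growth factor and immediate early genes, 7 rose and 0 fell, and the latter count is near the share of all genes that fell. *Areg*, a ligand of the EGF receptor, went from 58.5 to 82.5 normalized counts to 121 to 157 (log2 fold change 1.01, SE 0.18, DESeq2 *Padj* = 1.75e-06), and *Dusp5*, a nuclear phosphatase of ERK, rose by 0.84. *Jun*, *Fos* and *Egfr* had values of 0.03, 0.14 and 0.14 and were not called.

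Of 20 tested partners and known targets of ChREBP, 1 fell and 0 rose (median -0.091), against 4.08% called lower and 6.35% called higher among all genes. The count that fell was 5 without replicate 4 of BOTH and 2 without replicate 3 of BMAL1 or replicate 1 or 2 of BOTH. The member that fell was *Elovl6*, which elongates palmitate, with 222, 194, 218 and 240 normalized counts in BMAL1 and 162, 162, 170 and 85.4 in BOTH. Its log2 fold change was -0.60 (SE 0.17, DESeq2 *Padj* = 0.00762), and -0.41 without replicate 4. *Txnip*, a glucose-induced regulator of glucose uptake, had 1788, 2028, 2123 and 2113 normalized counts in BMAL1 and 1948, 2101, 1923 and 2197 in BOTH. The difference had a log2 interval of -0.15 to 0.19 (95%, DESeq2 *Padj* = 0.944). For *Pklr*, the liver pyruvate kinase, the interval was -0.25 to 0.23, and for *Klf10* it was -0.33 to 0.10 (DESeq2 *Padj* = 0.982 and 0.655). *Fasn*, *Acly*, *Acaca* and *Me1*, enzymes of fatty acid synthesis, had values of -0.11, -0.05, 0.03 and 0.07 and were not called. Of 28 genes of fatty acid and triglyceride synthesis, 2 rose and 2 fell, which can be read against the same shares. The counts were 1 and 7 without replicate 4 of BOTH, 4 fell without its replicate 1, and 1 rose without replicate 2, 3 or 4 of BMAL1. *Scd2*, a desaturase that makes monounsaturated fatty acids, had 7693, 8205, 7806 and 7714 normalized counts in BMAL1 and 5409, 4411, 4743 and 5675 in BOTH. All BOTH libraries were lower (log2 fold change -0.63, SE 0.08, DESeq2 *Padj* = 2.43e-14). *Plin2*, which coats lipid droplets, rose by 0.20 (SE 0.05, DESeq2 *Padj* = 0.00423).

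Among 25 genes of fatty acid oxidation and PPAR targets, 3 rose and 6 fell, where 6.35% of all genes tested were called higher and 4.08% lower. *Acot1*, a cytosolic acyl-CoA thioesterase, fell by 0.29 on the log2 scale and *Angptl4*, an inhibitor of lipoprotein lipase, rose by 0.38 (DESeq2 *Padj* = 0.00167 and 0.00171). *Cpt1a* and *Ppara* had values of -0.01 and -0.32 and were not called. The count of members that fell was 3 without replicate 4 of BMAL1 or replicate 2 of BOTH and 9 without replicate 4 of BOTH. None of 32 tested subunits of the respiratory chain and ATP synthase passed the DESeq2 test, and 2 fell without replicate 4 of BOTH. *Ucp2*, a carrier of the inner mitochondrial membrane, went from 154 ± 26.1 normalized counts in BMAL1 to 79.0 ± 18.9 in BOTH (SD, n = 4; log2 fold change -0.96, SE 0.21, DESeq2 *Padj* = 0.00026), and it overlaps *Dnajb13* on the other strand.

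Of 25 genes of cholesterol synthesis and uptake, 2 fell and 0 rose (median -0.14), with 4.08% and 6.35% over all genes. The number that fell was 5 without replicate 4 of BOTH and 1 without replicate 1 or 3 of BMAL1 or 2 or 3 of BOTH, and 1 rose without replicate 1 of BOTH. In handling and export, 3 of 15 tested genes rose and 3 fell. *Soat1*, which esterifies cholesterol for storage, had 227, 244, 223 and 210 normalized counts in BMAL1 and 489, 592, 566 and 516 in BOTH, a 2.39-fold difference with no overlap (DESeq2 *Padj* = 2.19e-19). *Lipa* and *Npc2*, which release cholesterol from lysosomes, rose by log2 values of 0.53 and 0.32 (DESeq2 *Padj* = 3.02e-08 and 0.00163). *Abca1*, which exports cholesterol to apolipoprotein A-I, had 33.0, 52.8, 50.5 and 52.9 normalized counts in BMAL1 and 23.6, 29.6, 19.9 and 21.4 in BOTH, and fell by 1.01 on the log2 scale (SE 0.28, DESeq2 *Padj* = 0.00644). *Abca8b* fell from 252 to 313 normalized counts to 177 to 228 (log2 fold change -0.43, SE 0.11, DESeq2 *Padj* = 0.00234), and *Apoe*, the main apolipoprotein of remnant particles, fell by 0.39 with overlapping groups. *Abca1*, *Abca8b*, *Igf1*, *Lbh* and *Foxa1* were named by the study for this experiment, and it chose them on these samples, so that their direction here is not independent evidence. *Igf1*, the growth factor that the liver secretes, had 38.5, 36.6, 30.1 and 32.5 normalized counts in BMAL1 and 16.9, 14.3, 14.0 and 15.5 in BOTH (log2 fold change -1.18, SE 0.33, DESeq2 *Padj* = 0.00736). *Lbh* fell by 0.68 and *Foxa1* had a value of -0.01 and was not called.

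**Figure D4:**
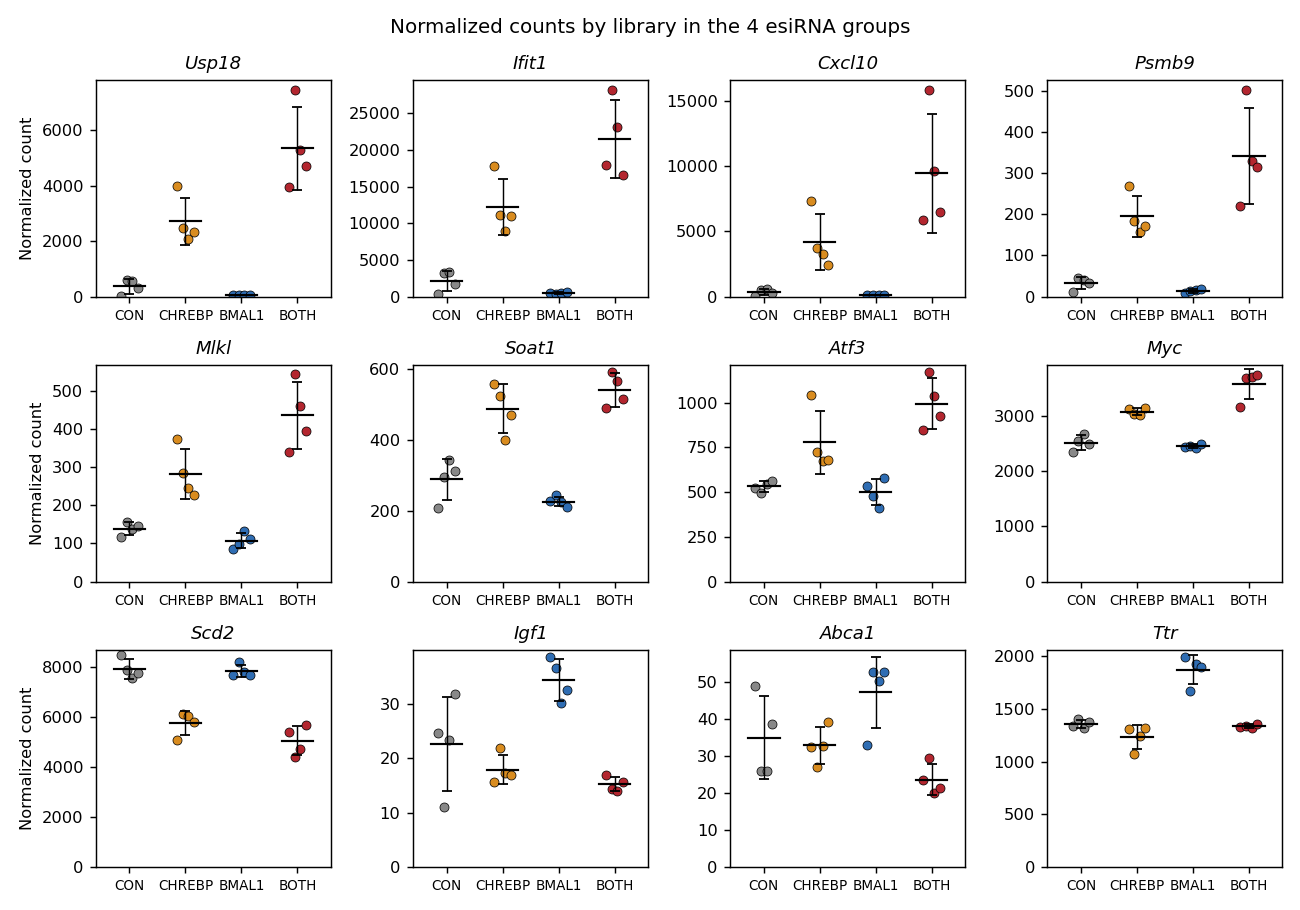
Normalized counts of 12 genes (y axes, from 0) in the 4 libraries of CON, CHREBP, BMAL1 and BOTH (x axes), with the mean as a line and the SD as an error bar. *Ifit1* was 16550 to 28200 in BOTH and 380 to 580 in BMAL1, and *Ttr* was 1315 to 1356 in BOTH and 1671 to 1996 in BMAL1.

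Of 20 tested clock genes, 1 rose and 0 fell (median -0.049), against 6.35% called higher and 4.08% called lower among all genes. The one that rose was *Nfil3*, a repressor of D-box genes, with 180, 263, 252 and 245 normalized counts in BMAL1 and 358, 352, 331 and 384 in BOTH (log2 fold change 0.59, SE 0.11, DESeq2 *Padj* = 1.16e-06). *Per1*, *Per2*, *Cry1*, *Nr1d1* and *Dbp*, targets of the BMAL1 and CLOCK pair, had values of 0.23, -0.12, 0.05, 0.32 and -0.43 and were not called. *Clock* itself ran from 37.9 to 226 in BOTH, lowest in replicate 4, and the difference had a wide interval of -0.68 to 0.83.

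Genes of mitosis fell in 7 of 25 tested members with 0 rising (median -0.27), against 4.08% lower and 6.35% higher over all genes, and in 4 without replicate 1 or 3 of BMAL1. *Kif23*, a motor of the midzone needed for cytokinesis, had 209, 179, 196 and 196 normalized counts in BMAL1 and 153, 155, 142 and 140 in BOTH (log2 fold change -0.40, SE 0.12, DESeq2 *Padj* = 0.00998). *Prc1*, which bundles midzone microtubules, fell by 0.53. Of 26 genes of DNA replication, 1 rose and 3 fell, beside the same shares of 6.35% and 4.08%, and 5 fell without replicate 4 of BOTH. *Rrm2*, the subunit of ribonucleotide reductase that limits its activity in S phase, fell from 629 to 770 normalized counts to 398 to 597 (log2 fold change -0.52, SE 0.10, DESeq2 *Padj* = 2.39e-05), and the helicase subunit *Mcm6* rose by 0.26.

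Of 27 hepatocyte genes, 7 fell and 1 rose (median -0.15), against 4.08% and 6.35% of all genes. Without replicate 2 of BOTH 4 fell, and without replicate 3 of BMAL1 2 rose. *Ttr*, the carrier of thyroid hormone and retinol-binding protein, had 1996, 1671, 1924 and 1895 normalized counts in BMAL1 and 1324, 1339, 1315 and 1356 in BOTH (log2 fold change -0.49, SE 0.07, DESeq2 *Padj* = 7.51e-10). Its mean in CON was 1360 ± 37.5 (SD, n = 4), so that BOTH lay at the level of CON and BMAL1 above it. *Foxa2*, a pioneer factor of liver genes, rose by 0.30, and *Alb*, *Krt8* and *Krt18* had values of -0.16, 0.09 and 0.09 and were not called. Of the 5 tested cholangiocyte markers, 2 fell and 0 rose, against the same shares of all genes. *Krt19* fell by 0.32 (SE 0.09, DESeq2 *Padj* = 0.0059). *Sox9* was the other, and its call was lost in the 8 libraries alone and without replicate 1 of BMAL1. The summed level of the 5 markers was 16380 to 17420 in BMAL1 and 15040 to 16530 in BOTH.

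The counts of the next lists stand against 6.35% called higher and 4.08% called lower among all genes tested. Of 26 genes of lysosomes and autophagy, 6 rose and 1 fell, and 5 rose and 3 fell without replicate 4 of BOTH and 5 and 2 without its replicate 1. The fall was lost without replicate 2 or 3 of BMAL1. *Optn*, a receptor that brings cargo to autophagosomes, rose by a log2 value of 0.99 (DESeq2 *Padj* = 6.66e-11). Of 21 genes of the NRF2 and glutathione list, 2 rose and 3 fell, and *Keap1*, the adaptor that marks NRF2 for degradation, rose by 0.58 (DESeq2 *Padj* = 1.75e-07). Of 26 genes of collagens, matrix and integrins, 3 fell and 0 rose, with 1 falling without replicate 2 of BMAL1 or 3 of BOTH. Of 20 genes of glycolysis and the pentose phosphate pathway, 1 rose and 1 fell, both calls were lost without replicate 1 of BMAL1 or 2 of BOTH, the rise also without replicate 1 of BOTH and the fall without replicate 2 of BMAL1, and 2 fell without replicate 4 of BOTH. Of 7 tested mitochondrially encoded genes, 1 fell and 0 rose, whereas without replicate 4 of BOTH 0 fell and 1 rose. The one that fell, *mt-Nd1*, was no longer called in 10 of 17 alternatives.

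The largest falls with a mean of at least 50 normalized counts and no overlap were about 2-fold. They included *Nrarp*, *Ucp2*, *Slc5a3*, *N4bp2os*, *Platr25*, *Mpp7*, *Nrep*, *Dlg3* and *Fndc4*, with log2 fold changes of -1.07 to -0.80. *Nrarp*, a target and feedback inhibitor of Notch signalling, had 79.8, 65.7, 78.7 and 52.0 normalized counts in BMAL1 and 29.2, 19.7, 47.9 and 35.9 in BOTH (DESeq2 *Padj* = 0.000335). *Slc5a3*, the sodium-coupled transporter of myo-inositol, had 32.2, 31.6 and 32.0 in replicates 2 to 4 of BOTH and 60.6 in replicate 1, close to the lowest BMAL1 library at 62.1. *Nrep*, a regulator of neural and TGF-beta responses, was the most precise, from 500 to 538 in BMAL1 to 252 to 334 in BOTH (log2 fold change -0.82, SE 0.10, DESeq2 *Padj* = 3.09e-15). *N4bp2os* lies antisense to *N4bp2*, and *Slc5a3* and *Platr25* overlap other genes on the same strand, so that their reads may not be their own. The call of *Fndc4* was lost without replicate 2 of either group.

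The comparison without *Bmal1* esiRNA, CHREBP against CON, shares no library with BOTH against BMAL1. In it 368 genes were higher (2.65%) and 107 lower (0.771%). The lower genes numbered 56 without replicate 4 of CON, 69 without replicate 1 of CHREBP and 71 without replicate 1 of CON. The 317 genes higher in both comparisons were 35.9% of those higher in BOTH and 86.1% of those higher in CHREBP, and the 50 lower in both were 8.83% and 46.7%. No gene was called in opposite directions. *Ifit1* averaged 2144 ± 1385 normalized counts in CON against 12220 ± 3848 in CHREBP (SD, n = 4), so that it was lower in BMAL1 than in CON and higher in BOTH than in CHREBP on average, differences that were not tested here. In these comparisons the total dose fell from 200 to 100 nM between CON and CHREBP and rose from 100 to 200 nM between BMAL1 and BOTH, and the library letters were A to D in the first and E to H in the second, so that *Bmal1* esiRNA, the change in total dose and the library letter cannot be told apart.

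The difference between the comparisons was tested as an interaction. It was past the threshold in 167 genes with a more positive change from BMAL1 to BOTH (1.2%) and in 37 with a more negative change (0.267%). Of the 167, 161 had risen in BOTH against BMAL1 and 115 in CHREBP against CON, so that most were rises in both that were larger from BMAL1 to BOTH. *Usp18*, *Zbp1*, *Mx2* and *Ifit1* had interaction log2 values of 3.77, 3.70, 3.69 and 2.97 (DESeq2 *Padj* = 0.00186, 0.0109, 0.00305 and 0.0066). *Mlkl* had a value of 0.99 (SE 0.24, DESeq2 *Padj* = 0.00987). Of the 28 tested growth factor and immediate early genes, 2 were among the 167, where 1.2% of all tested genes were. *Areg* rose by 1.01 with *Bmal1* esiRNA and had a value of -0.21 without it, an interaction of 1.23 (SE 0.26, DESeq2 *Padj* = 0.00137). The ERK phosphatase *Dusp5* rose by 0.84 with *Bmal1* esiRNA and had a value of 0.29 without it, a call lost in 10 of 15 alternatives. Its interaction was 0.55 (SE 0.14, DESeq2 *Padj* = 0.012). The *Areg* interaction was not called without replicate 3 of CHREBP. *Ccl9*, a chemokine of myeloid cells, fell from 191 ± 18.1 in CON to 112 ± 15.6 in CHREBP (SD, n = 4) and went from 106, 101, 120 and 81.7 normalized counts in BMAL1 to 116, 116, 162 and 141 in BOTH, which was not past the threshold (DESeq2 *Padj* = 0.128). Its interaction was 1.16 (SE 0.22, DESeq2 *Padj* = 0.000312).

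Of the 37 genes with a negative interaction, 27 had fallen in BOTH against BMAL1, and 0 were called lower and 5 higher in CHREBP against CON by DESeq2. *Nrep* fell by 0.82 with *Bmal1* esiRNA and had a value of -0.17 without it, an interaction of -0.65 (SE 0.14, DESeq2 *Padj* = 0.00137). *Mmp14*, a membrane-anchored matrix metalloproteinase, was 277 ± 46.5 in BMAL1 and 194 ± 22.1 in BOTH against 239 ± 25.9 in CON and 284 ± 13.7 in CHREBP (SD, n = 4), an interaction of -0.76 (SE 0.18, DESeq2 *Padj* = 0.00602). *Mgst2*, a microsomal glutathione transferase, and *Abca8b* had interactions of -0.79 and -0.58 (DESeq2 *Padj* = 0.0169 and 0.0222). The interactions of *Mmp14*, *Mgst2*, *Abca8b* and *Nrep* were called under all 23 alternatives tried, whereas that of *Ttr* (-0.35, SE 0.10, DESeq2 *Padj* = 0.0485) was lost in 10 of them, which included leaving out replicate 1, 3 or 4 of BMAL1, 1, 3 or 4 of CHREBP, or 1 or 3 of CON. Without replicate 4 of BOTH the negative interactions numbered 91, and leaving out other libraries gave 13 to 42. The control libraries varied in the interferon response. The summed normalized count of the 31 antiviral effectors was 1560, 8707, 9044 and 4625 in CON, 1690 to 2242 in BMAL1, 55590, 31560, 26120 and 27540 in CHREBP, and 47120 to 82210 in BOTH. Replicate 1 of CON was thus at the level of BMAL1, and replicate 1 of CHREBP was above the other CHREBP libraries, and the part of this spread in the interactions was not tested. Leaving out 1 library moved the positive interactions between 88, without replicate 3 of CON, and 240, without replicate 1 of CHREBP.

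**Figure D5:**
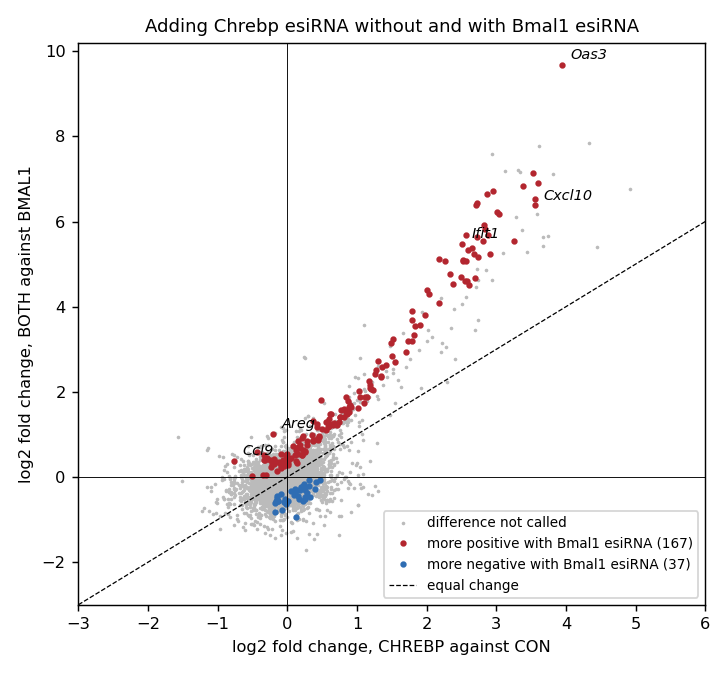
log2 fold change of BOTH against BMAL1 (y axis) against that of CHREBP against CON (x axis) for genes with a mean of at least 10 normalized counts in 16 libraries or a called interaction, with the dashed line where both are equal. Red points (167 genes) lie above the line and blue points (37 genes) below it, and most interferon-induced genes lie in the upper right.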

How the data were processed

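RNA was measured by BRB-seq, which reads the 3′ end of transcripts. The authors aligned the reads to mm10 with STAR and made the deposited table of raw counts per gene with HTSeq (featureCounts is also named in the submitters' processing notes). Versions, annotation release, use of strand and handling of molecular identifiers were not given in the sources used here. The table held 55487 genes, of which 55227 matched GENCODE M21 for names and coordinates. Summary lines were removed.

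Groups came from the labels, and all 24 samples were mapped. DESeq2 1.42.0 in R 4.3.3 was fitted to the 16 esiRNA libraries (CON, BMAL1, CHREBP and BOTH), with genes of a summed count of at least 25 and *Padj* under 0.1 as in the study's methods. BOTH against BMAL1, CHREBP against CON and the difference between these were tested (Wald test, Benjamini-Hochberg). Of 13883 genes, 12537 had a *Padj* in the first comparison. Normalized counts are counts divided by size factors, and they do not compare levels between genes. Single values were tested by exact two-sided permutation (scipy 1.17.1), for which 0.0286 is the smallest p that 4 against 4 allows. Replicate pairs differed beyond sampling noise (chi-square per degree of freedom 2.88 to 24.7 over 12 pairs), and all libraries were kept. Counting intervals (95%) and floors of 3 counts cover counting error only.

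Members and 34 gene lists were chosen with earlier results of these data known. Genes were named by a rule: the targets, the 10 largest rises and falls among called genes whose groups did not overlap and whose mean reached 50, the 3 largest called rises and falls of each list with its key members, 8 genes named by the study, and the 5 largest interactions in each direction under the same limits. Other list members were named as examples after their values were seen. A few genes that the rule or the lists hold are not reported here. Gene families, overlapping genes and antisense genes may share reads. Counts were simulated for 13883 genes of BOTH against BMAL1. DESeq2 recovered 86% of genes raised 1.5-fold, 84% of those lowered 1.5-fold and 100% of those raised 2-fold, with 9.76% false calls. The changed genes all had a mean normalized count of at least 50 in BMAL1, so that recovery at lower counts was not simulated. Alternatives were a *Padj* of 0.05, all 24 libraries, TMM factors, the edgeR 4.0.16 quasi-likelihood test, another filter or none, size factors without the interferon lists, a replicate block, the 8 libraries alone and each library left out.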

Additional observations from a re-analysis of the deposited data

Results flagged for a closer look

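In 227 groups of 4 libraries of the named genes, 1 library lay far from the other 3 in 10 cases, and chance alone gives about 1 in 20 groups. In BOTH, replicate 1 was apart for *Slc5a3* (60.65 normalized counts against 31.57 to 32.23), *Myc* (3163 against 3693 to 3733) and *Tnfaip8l1* (148.3 against 111.0 to 112.6). Replicate 3 of BOTH was apart for *Slc25a20* (102.9 against 117.3 to 120.2). Replicate 4 of BOTH was apart for *Elovl6* (85.43 against 161.7 to 169.5), *Pnpla2* (1315 against 850.1 to 896.2) and *Ulk1* (404.8 against 479.4 to 486.2). In BMAL1, *Abca1* was low in replicate 1 (33.04 against 50.49 to 52.91), *Irf7* was low in replicate 2 (18.32 against 66.03 to 75.19) and *N4bp2os* was low in replicate 4 (53.84 against 70.88 to 74.35).

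The change from BMAL1 to BOTH differed from that from CON to CHREBP by the DESeq2 interaction test in 167 genes in the positive and 37 in the negative direction. *Bmal1* esiRNA, the change in total dose and the library letter cannot be told apart here. Among genes with a called interaction, a mean of at least 50 normalized counts over the 16 libraries and no overlap between BOTH and BMAL1, the 5 most positive log2 interactions were 5.745 for *Oas3*, 3.771 for *Usp18*, 3.77 for *Ifi44*, 3.7 for *Zbp1* and 3.69 for *Mx2*. That of *Oas3*, which had 2 counts in BMAL1, was not called by edgeR. Within the same limits the 5 most negative were -1.075 for *N4bp2os*, -0.7268 for *Gm6169*, -0.6824 for *Tnfaip8l1*, -0.6676 for *Deptor* and -0.6478 for *Nrep*. Those of *N4bp2os*, *Gm6169*, *Tnfaip8l1* and *Deptor* were lost in 14, 10, 8 and 10 of 23 alternatives, of which the last 3 genes were also lost by edgeR, and those of *Nrep*, *Usp18*, *Ifi44*, *Zbp1* and *Mx2* in 0. Of the 37 interactions called among the named genes, 16 were called under every one of 23 alternatives and 21 were lost under 1 or more.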

How the results depend on the processing

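No called value of a named gene changed sign under an alternative. Of 107 named genes called in BOTH against BMAL1, 82 were called under every alternative and 25 were lost under 1 or more. The lower genes of BOTH against BMAL1 numbered 369 at a *Padj* under 0.05 and 297 in the 8 libraries alone, against 566 as reported. The negative interactions numbered 16 at a *Padj* under 0.05 and 9 by the edgeR quasi-likelihood test, against 37; the cause was not tested beyond the stricter threshold and the smaller number of libraries. Leaving out 1 library at a time gave 747 to 974 higher and 390 to 742 lower genes in BOTH against BMAL1, 266 to 340 higher and 56 to 99 lower genes in CHREBP against CON, and 88 to 240 positive and 13 to 91 negative interactions. CHREBP against CON fell to 56 lower genes without replicate 4 of CON, 69 without replicate 1 of CHREBP and 71 without replicate 1 of CON. *Mlxipl* ranged from -1.17 to -0.87 and *Arntl* from -0.39 to -0.06 on the log2 scale. With the replicate number as a block, 818 genes rose and 527 fell, of which 808 and 476 had been called without the block, and the interactions were 119 and 28. Same-numbered libraries of BOTH and BMAL1 deviated with correlations of -0.0382 to 0.00334. No pairing by number was seen in this measure, and shared handling of same-numbered libraries was not tested. By edgeR, 833 genes rose and 479 fell. The fits of the 8 libraries alone gave no value for CHREBP against CON or the interaction.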

Other observations

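Further genes outside the lists were chosen after their values were seen. *Cd274*, which encodes the immune checkpoint ligand PD-L1, was 3.93 ± 1.40 normalized counts in BMAL1 and 165 ± 73.9 in BOTH (SD, n = 4; log2 fold change 5.38, SE 0.56, DESeq2 *Padj* = 1.41e-19). The ADP-ribosyltransferases *Parp9*, *Parp12* and *Parp14* rose by log2 values of 3.34, 3.81 and 4.21, and *Dtx3l*, the ubiquitin ligase partner of *Parp9*, by 3.20. The complement gene *Cfb* rose by 0.93. *Nampt*, which limits the salvage synthesis of NAD, rose by 2.25 (SE 0.21, DESeq2 *Padj* = 1.72e-23), and *Gch1*, the first enzyme of tetrahydrobiopterin synthesis, rose by 1.26. Each of these genes had no overlap between BOTH and BMAL1 and was also called higher in CHREBP against CON.

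Other genes fell with no overlap and were not called in CHREBP against CON, and the difference between the comparisons is not given for them. *Mt1*, a metallothionein that binds zinc and copper, was 2023 ± 193 in BMAL1 and 1378 ± 58.0 in BOTH (SD, n = 4; log2 fold change -0.55, SE 0.07, DESeq2 *Padj* = 5.43e-13). *Wnt4*, a secreted Wnt ligand, had a log2 fold change of -0.55, and *Fgfr2*, a fibroblast growth factor receptor, of -0.58. *Elf3*, an epithelial ETS factor, and *Idh1*, the cytosolic isocitrate dehydrogenase, had values of -0.69 and -0.44 (DESeq2 *Padj* = 5.27e-06 and 9.35e-05).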
